A study of Mus musculus with 22 samples.

Results

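Collagen genes were described in RNA of adult mouse choroid plexus (ChP), the secretory tissue of the brain ventricles, in 7 groups of pools that differ in Otx2 label and in ventricle. The members were taken by name alone, as every protein-coding gene whose symbol has the form Col, a type number, the letter a and a chain number, and no measured value entered the choice. They were 43 of the 33984 genes in the deposited counts, out of 44 that GENCODE release vM21 annotates, and Col6a5 was not analysed here. Of the transcripts of a gene, the one with the largest summed count stands for it.

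Each group held 2 pools of mice, A and B, and the 14 pools came from 22 samples. In the conditional model, Otx2 lox/lox mice (strain given as S129), 3 months old, received an injection of Cre-Tat protein or of vehicle into both lateral ventricles, and ChP was taken 15 days later from the lateral (LV) and the fourth (4V) ventricle, in pools of 5 mice labelled Cre-Tat or 4 mice labelled vehicle. Every mouse of this model carries the floxed allele, the 4V was not itself injected, and Cre acts only on cells that the protein reaches. In the constitutive model (strain given as B6D2), 4V ChP came from pools labelled wildtype, Otx2+/- and Otx2+/AA. The methods of the study describe the heterozygote as Otx2+/GFP, pooled from 4 mutant and 5 wildtype littermates of 3 months, and the labels do not explain the AA allele. Model, strain and sequencing run go together and cannot be told apart.

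Collagens are proteins of the extracellular matrix in which chains wind into a triple helix, and each gene encodes one kind of chain. Fibrillar types form the cables of connective tissue, type IV forms the sheet of basement membranes, type VIII forms hexagonal networks, and the fibril-associated types decorate the surface of fibrils. In ChP a single layer of epithelial cells, the main source of cerebrospinal fluid, rests on a basement membrane around a stroma with fibroblasts, macrophages and leaky capillaries, and most collagens are made by stromal and vascular cells.

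The windows around the start sites of 6 chains are shown because their genes carry the results below. Col1a2, Col11a1, Col17a1 and Col8a1 passed the test in both ventricles of the conditional model, and the windows of Col4a1 and Col4a4 each hold the starts of a pair of divergent type IV genes. The windows are RefSeq's on GRCm38.p6, from 250 bases before to 50 bases after the annotated start, written 5′ to 3′ on the strand of the gene. Capitals mark the TATA box searched as TATAAA (on the other strand TTTATA), the homeodomain core searched as TAATCC (on the other strand GGATTA) and the CCAAT box (on the other strand ATTGG), and no marked stretch overlaps another. The positions are chr6:4505368-4505667 on the plus strand for Col1a2, chr3:114030290-114030589 plus for Col11a1, chr19:47691993-47692292 minus for Col17a1, chr16:57754688-57754987 minus for Col8a1, chr8:11312777-11313076 minus for Col4a1 and chr1:82586800-82587099 minus for Col4a4.
Col1a2: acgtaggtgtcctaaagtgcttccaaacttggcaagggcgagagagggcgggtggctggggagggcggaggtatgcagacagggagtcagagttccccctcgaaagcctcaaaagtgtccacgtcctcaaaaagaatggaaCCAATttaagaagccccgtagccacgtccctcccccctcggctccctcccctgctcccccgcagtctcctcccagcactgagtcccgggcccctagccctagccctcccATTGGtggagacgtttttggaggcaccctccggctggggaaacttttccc
Col11a1: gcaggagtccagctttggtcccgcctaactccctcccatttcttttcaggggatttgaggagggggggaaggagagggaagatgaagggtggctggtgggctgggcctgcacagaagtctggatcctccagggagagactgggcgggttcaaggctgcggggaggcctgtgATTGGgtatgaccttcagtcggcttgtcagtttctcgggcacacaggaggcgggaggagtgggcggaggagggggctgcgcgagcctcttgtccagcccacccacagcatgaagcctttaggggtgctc
Col17a1: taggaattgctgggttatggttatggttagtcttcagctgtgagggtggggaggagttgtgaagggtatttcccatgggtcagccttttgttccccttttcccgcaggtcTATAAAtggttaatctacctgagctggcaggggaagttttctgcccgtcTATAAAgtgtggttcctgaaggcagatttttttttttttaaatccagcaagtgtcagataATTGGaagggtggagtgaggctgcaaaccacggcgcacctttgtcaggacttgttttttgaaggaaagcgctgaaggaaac
Col8a1: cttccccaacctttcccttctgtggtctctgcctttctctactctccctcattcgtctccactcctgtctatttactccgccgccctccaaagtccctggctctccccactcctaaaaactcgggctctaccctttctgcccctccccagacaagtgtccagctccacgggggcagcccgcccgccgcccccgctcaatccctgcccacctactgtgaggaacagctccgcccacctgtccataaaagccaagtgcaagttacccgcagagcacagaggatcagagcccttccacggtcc
Col4a1: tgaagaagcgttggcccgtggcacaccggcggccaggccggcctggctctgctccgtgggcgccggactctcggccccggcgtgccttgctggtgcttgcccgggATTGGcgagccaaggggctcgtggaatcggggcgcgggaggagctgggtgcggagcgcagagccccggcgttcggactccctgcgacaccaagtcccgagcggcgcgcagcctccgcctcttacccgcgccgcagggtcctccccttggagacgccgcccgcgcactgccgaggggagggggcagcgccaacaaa
Col4a4: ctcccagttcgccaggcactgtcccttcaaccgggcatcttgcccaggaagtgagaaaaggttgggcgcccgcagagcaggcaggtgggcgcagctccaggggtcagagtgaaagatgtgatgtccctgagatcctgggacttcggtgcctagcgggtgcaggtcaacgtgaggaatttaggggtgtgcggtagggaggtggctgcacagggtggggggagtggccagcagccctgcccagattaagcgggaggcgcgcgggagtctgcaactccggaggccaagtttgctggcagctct

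RefSeq windows were found for 34 of the 43 members, and Col12a1, Col14a1, Col1a1, Col22a1, Col26a1, Col2a1, Col4a3, Col5a2 and Col9a3 had none. The homeodomain core, which OTX factors are known to bind, was in 0 of the 34 windows and in 7.1% of the 32817 windows of all genes. CCAAT was in 11 collagen windows (32.4%, against 37.4% of all windows) and TATAAA in 5 (14.7%, against 13.6%). The counted transcript of Col1a2 starts 125 bases from the RefSeq start, and that of Col17a1 52 bases from it. Col4a1 and Col4a2 start 21 bases apart on opposite strands and overlap by 22 bases, and Col4a4 and Col4a3 start 127 bases apart. A match of letters is a description of the window, not a binding site.

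Otx2, counted over its whole transcript, was higher, not lower, in the pools labelled Cre-Tat and Otx2+/-. It was measured at 391 and 476 CPM (counts scaled to library size after TMM normalisation) in the pools labelled vehicle and at 1245 and 1016 CPM in those labelled Cre-Tat of LV ChP, and at 383 and 392 against 1195 and 1211 CPM in 4V ChP. The pools labelled Otx2+/- held 1034 and 884 CPM, against 362 and 303 CPM in wildtype. Exon 2, the part removed by Cre, could not be counted apart, so pools are named here by label only. From its sequencing, the study reports fewer reads of that exon in both ventricles under Cre-Tat and in the heterozygote. It also cites earlier work with lower OTX2 protein in both models. Why the count over the whole transcript was higher under these labels was not tested. Per the methods of the study, tissue of the Cre-Tat mice had been checked for lower Otx2 by qPCR before pooling. Emx2, a marker of the forebrain plexus, had 98 and 107 counts in the vehicle pools of LV and 0 in both vehicle pools of 4V. Hoxb2, a hindbrain marker, had 14 in each vehicle pool of 4V and 0 in those of LV. In the Cre-Tat pools, Emx2 had 131 and 124 counts in LV and 5 and 4 in 4V. Hoxb2 had 0 in both Cre-Tat pools of LV and 22 and 29 in those of 4V. The ChP markers Ttr and Enpp2 held at least 1213228 and 370010 counts in every pool. Total counts were 22750019 to 50088408 per pool.

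The most abundant collagen transcripts in ChP were Col9a3, a chain of the fibril-associated type IX, and both chains of the network-forming type VIII. Over the 14 pools and per kilobase of the counted transcript, Col9a3 averaged 117 CPM per kb (range 90.3 to 145), Col8a2 101 CPM per kb (51.5 to 153) and Col8a1 95.9 CPM per kb (53.4 to 135), with ranges that overlap. They lay at the 98.8th to 99.1st percentile of protein-coding genes. Levels between genes also depend on how 50-base reads across exon junctions were aligned, which was not examined. The counted transcripts of Col8a1 and Col8a2 have 4 exons, that of Col9a3 has 33 and that of Col1a2 has 52. Col1a2 of type I (18.4 CPM per kb, 7.31 to 31.5) and Col18a1, the precursor of endostatin (16.9 CPM per kb, 11 to 22.5), came next, below the leading 3 in every pool. Their order changed with the group, since Col18a1 was the higher in vehicle LV (16.4 and 18.2 against 7.48 and 8.70 CPM per kb) and Col1a2 in Otx2+/- (31.5 and 29.6 against 20.6 and 20.4 CPM per kb). The type IV chains Col4a5 (7.55 CPM per kb), Col4a3 (6.16), Col4a1 (5.30) and Col4a2 (4.87) and the fibril-associated Col14a1 (4.78) completed the first 10, and their ranges overlapped. Col9a1, Col24a1, Col6a4 and Col28a1 were the lowest, with 13 to 23 counts in all pools together, and no member had fewer than 10.

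**Figure D1:**
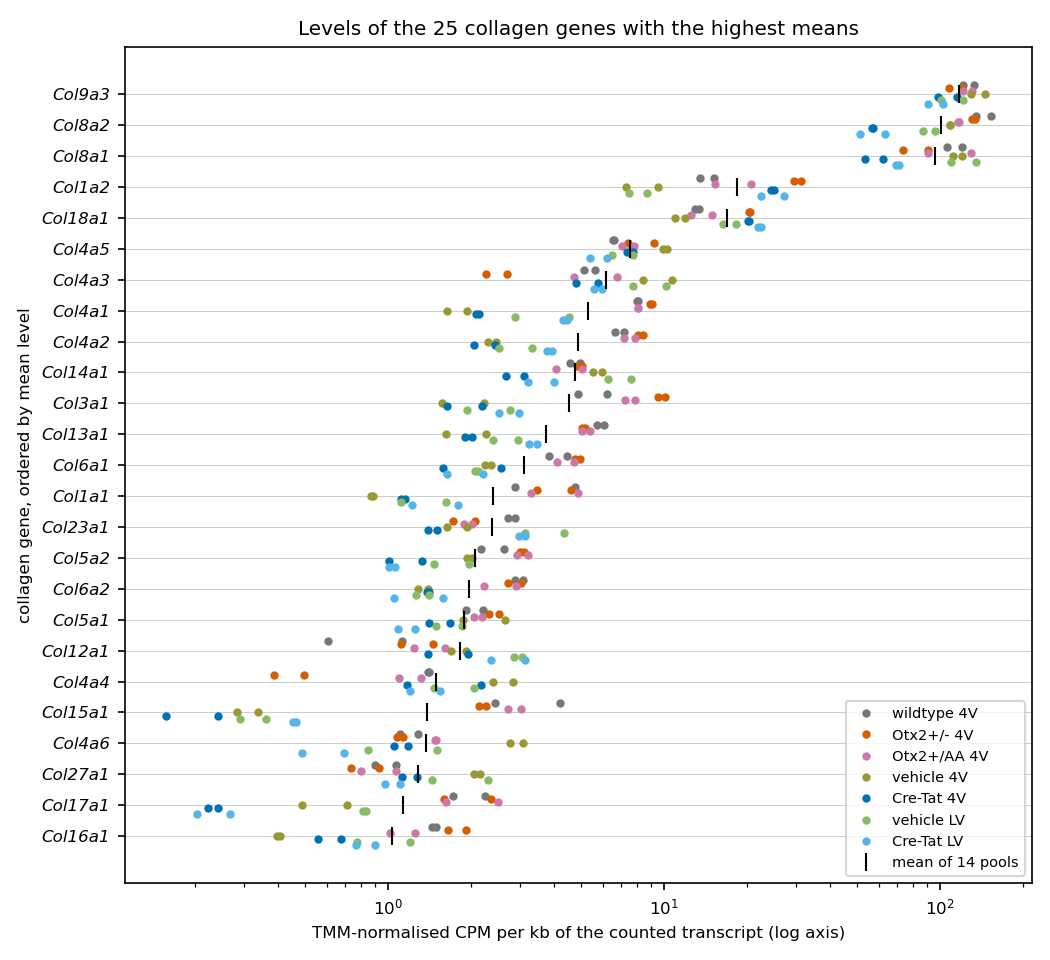
Normalised CPM per kb of the counted transcript on a log axis, for the 25 collagen genes with the highest means; each point is 1 pool, coloured by group, and the black tick is the mean of 14 pools. Col9a3, Col8a2 and Col8a1 sit at 51.5 or more in every pool, to the right of all other collagens, and Col15a1 ranges from 0.157 to 4.19.

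Some partner chains of one collagen type differed widely in level and others were near each other. Ratios between genes carry the same limit of alignment across exon junctions. Col9a3 was 60.0 to 1447 times as high per kb as its partner Col9a2, depending on the pool, and the third chain, Col9a1, had at most 3 counts in any pool. Col1a2 exceeded Col1a1, the chain that most type I molecules need in greater number, by 2.85 to 22.6 times per kb, and Col4a3 exceeded Col4a4 by 2.66 to 6.97 times. The ratio of Col4a1 to Col4a2, which assemble together in nearly all basement membranes, stayed between 0.710 and 1.36, that of Col8a1 to Col8a2 between 0.546 and 1.41, and that of Col6a1 to Col6a2 of the beaded filaments between 1.14 and 1.83. Reads of Tcfl5 on the opposite strand could enter 7.7% of the Col9a3 transcript, since the strand used in counting is not stated; Tcfl5 itself had 160 counts against 93787 for Col9a3.

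In the pools labelled Cre-Tat of LV ChP, 3 of 35 tested collagens rose and 3 fell, where 2.21% of the 15003 genes tested rose and 1.03% fell (3.24% in all). In 4V ChP, 5 of 35 rose and 9 fell, where 5.7% of 14550 genes rose and 4.98% fell (10.7% in all). In the pools labelled Otx2+/-, 5 of 35 rose and 2 fell, where 1.8% of 14573 genes rose and 1.75% fell (3.55% in all). The median log2 fold change of the tested collagens was 0 in LV, -0.34 in 4V and 0.08 in Otx2+/-, beside medians of all genes of 0, 0.01 and 0. Of the rises in LV, Col11a1 and Col22a1 passed the filter on low counts only through the Cre-Tat pools. The same held for Col11a1, Col22a1 and Col5a3 in 4V. Col22a1 in Otx2+/- passed it only through the Otx2+/- pools. Of the falls in 4V, Col9a2 passed it only through the vehicle pools. Each of these had to differ, so these counts are a description. Calls are those with an adjusted p under 0.05 in the quasi-likelihood test of edgeR, with p-values corrected by Benjamini-Hochberg across every tested gene; an exact permutation test of 2 pools against 2 could not reach that level. In bulk tissue, fewer cells of a type and less RNA per cell cannot be told apart. When libraries were scaled by total counts, the median of all genes moved to 0.17 in LV, 0.15 in 4V and 0.04 in Otx2+/-, the median of the collagens to 0.16, -0.20 and 0.11, and the collagen calls in LV became 3 higher and 1 lower. The calls of all genes then became 396 higher and 48 lower in LV (331 and 155 with TMM) and 1316 and 426 in 4V (829 and 725).

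**Figure D2:**
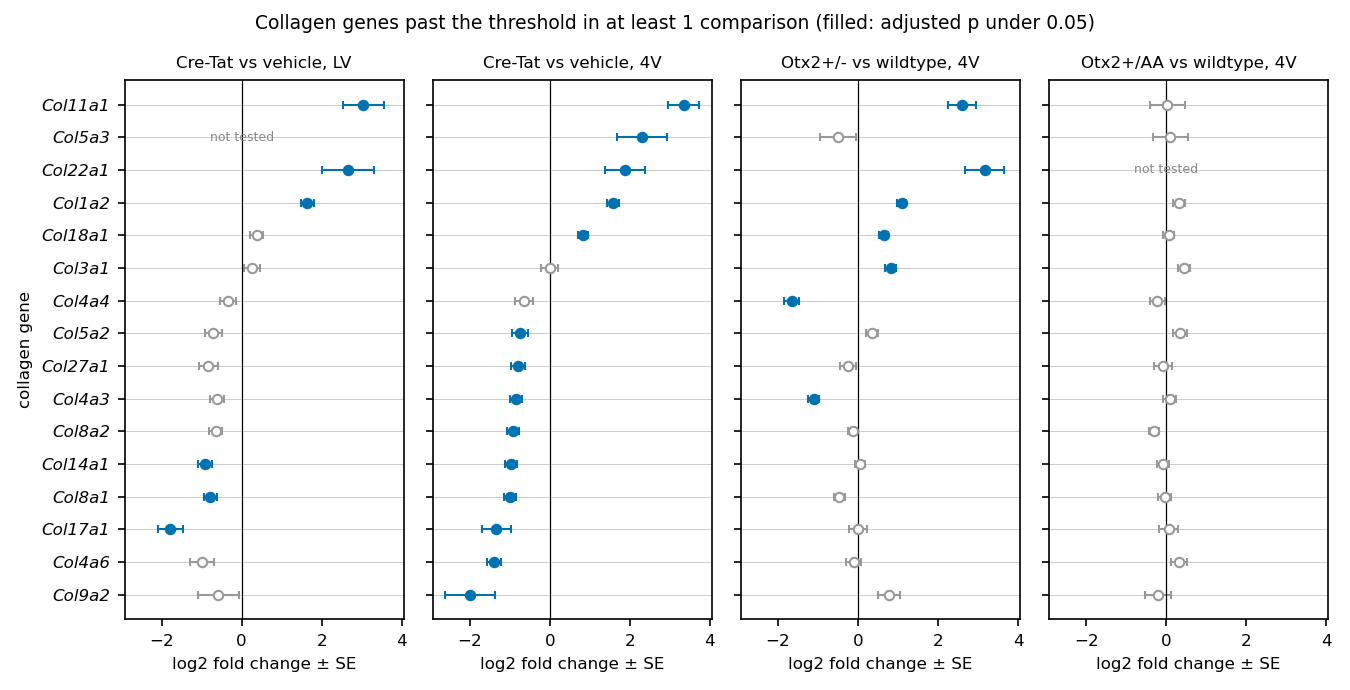
Log2 fold change with its standard error (x axis) of the 16 collagen genes past the threshold in at least 1 of 4 comparisons (panels), with filled points for an adjusted p under 0.05. Col11a1, Col22a1 and Col1a2 sit to the right of 0 in the first 3 panels with filled points, and no point is filled for Otx2+/AA.

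Among the fibrillar collagens, Col1a2, the alpha-2 chain of type I (chr6:4504814-4541544, GRCm38), rose in both ventricles under Cre-Tat and in Otx2+/-. Its level was 40.0 and 46.5 CPM in the vehicle pools of LV and 120 and 146 CPM in the pools labelled Cre-Tat. In 4V it was 39.1 and 50.9 CPM against 130.5 and 134 CPM. In the constitutive model it was 81.2 and 72.4 CPM in wildtype and 169 and 158 CPM in Otx2+/-. The groups did not overlap in any of these, and Col1a2 rose by 1.64 ± 0.17 (log2 fold change ± SE, adjusted p = 0.00011) in LV, by 1.57 ± 0.15 (1.3e-06) in 4V and by 1.09 ± 0.12 (0.0018) in Otx2+/-. Leaving out any pool kept these calls.

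Col1a1, the partner of Col1a2 in type I collagen, did not pass the test in any of these comparisons. It was measured at 6.63 and 9.62 CPM in vehicle and 7.24 and 10.6 CPM in Cre-Tat of LV, at 5.22 and 5.15 against 6.85 and 6.59 CPM in 4V, and at 17.1 and 28.2 CPM in wildtype against 20.5 and 27.3 CPM in Otx2+/-. Its log2 fold changes were 0.16 ± 0.25, 0.38 ± 0.23 and 0.08 ± 0.24, with adjusted p of 0.88, 0.36 and 0.9. The ratio of Col1a2 to Col1a1 per kb was 6.69 and 5.36 in vehicle and 18.4 and 15.2 in Cre-Tat of LV, and 8.31 and 10.95 against 21.1 and 22.6 in 4V. In Otx2+/- the ratio was 9.10 and 6.43, against 5.27 and 2.85 in wildtype. Both pools labelled Cre-Tat or Otx2+/- thus had a higher ratio than both of their controls.

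Col11a1, a chain of type XI that is best known from cartilage fibrils (chr3:114030540-114220718), had few counts but changed in the same 3 comparisons. It had 4 and 9 counts in vehicle and 78 and 47 in Cre-Tat of LV, 8 and 5 against 87 and 123 in 4V, and 28 and 17 in wildtype against 181 and 109 in Otx2+/-. The lowest Cre-Tat or Otx2+/- pool was above the highest control pool each time. Col11a1 rose by 3.04 ± 0.52 (adjusted p = 0.0052), 3.34 ± 0.39 (1.6e-05) and 2.60 ± 0.34 (0.0046) on the log2 scale. Without pool A of Cre-Tat LV the LV call was lost (2.76, adjusted p = 0.053). Since no vehicle pool reached 10 counts, the gene passed the filter on low counts in the conditional model through the pools labelled Cre-Tat.

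Col3a1, the type III chain of pliable connective tissue, rose in Otx2+/- and passed in neither ventricle of the conditional model. It stood at 27.3 and 34.6 CPM in wildtype and at 53.0 and 55.98 CPM in Otx2+/-, groups that did not overlap (log2 fold change 0.82 ± 0.14, adjusted p = 0.018). In the conditional model it was 10.7 and 15.4 against 14.1 and 16.5 CPM in LV and 12.3 and 8.74 against 12.1 and 9.08 CPM in 4V, with overlapping pools and adjusted p of 0.69 and 0.99. The difference between the 4V responses of the models, -0.83 ± 0.27 on the log2 scale, did not pass the test (adjusted p = 0.18). In LV the log2 fold change was 0.25 ± 0.20, and in 4V it was 0. Against the same wildtype pools, Col3a1 was also higher in Otx2+/AA, at 40.2 and 43.8 CPM. Those groups did not overlap, but the test was not passed (0.44 ± 0.15, adjusted p = 0.32).

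Of the type V chains, which help to start fibrils, Col5a2 fell and Col5a3 rose in 4V of the conditional model. Col5a2 was measured at 13.3 and 12.8 CPM in vehicle and at 8.80 and 6.69 CPM in Cre-Tat, without overlap (log2 fold change -0.75 ± 0.20, adjusted p = 0.019). That call was lost without pool A of vehicle 4V (-0.70, adjusted p = 0.08) and without pool B of Cre-Tat 4V (-0.56, adjusted p = 0.1), with DESeq2 (adjusted p = 0.052) and when all transcripts of a gene were summed (adjusted p = 0.062). In LV, Col5a2 had 13.0 and 9.72 against 7.04 and 6.68 CPM (-0.71 ± 0.21, adjusted p = 0.098), and the main chain Col5a1 did not pass in either ventricle (-0.49 ± 0.20 and -0.53 ± 0.19, adjusted p = 0.24 and 0.085). Col5a3 rested on 6 and 1 counts in vehicle and 22 and 33 in Cre-Tat of 4V (2.30 ± 0.62, adjusted p = 0.023) and passed the filter through the Cre-Tat pools. The Col5a3 call was lost without pool B of vehicle 4V (1.67, adjusted p = 0.18), without pool B of Cre-Tat 4V (2.05, adjusted p = 0.14), with DESeq2 (0.094) and with all groups of the run in 1 fit (0.059). Col27a1, a fibrillar chain of cartilage, fell in 4V from 15.7 and 16.4 to 9.66 and 8.58 CPM (-0.80 ± 0.18, adjusted p = 0.006), and in LV it stood at 17.5 and 11.03 against 8.41 and 7.41 CPM (-0.83 ± 0.23, adjusted p = 0.066).

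The fibril-associated Col14a1, which sits on the surface of type I fibrils, fell in both ventricles of the conditional model. Its level was 40.6 and 48.9 CPM in vehicle and 25.7 and 20.8 CPM in Cre-Tat of LV, and 35.8 and 38.5 against 20.02 and 17.3 CPM in 4V, with no overlap in either. The log2 fold changes were -0.92 ± 0.17 (adjusted p = 0.01) and -0.98 ± 0.15 (0.00031). Without pool B of vehicle LV the LV value was -0.78 with an adjusted p of 0.076, and after scaling by total counts it was -0.74 with an adjusted p of 0.062. In the constitutive model, Col14a1 stood at 32.2 and 29.45 CPM in wildtype and 31.3 and 32.5 CPM in Otx2+/- (0.05 ± 0.12, adjusted p = 0.88).

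Col22a1, a fibril-associated chain of tissue junctions (chr15:71795795-72034227), was nearly absent from control pools. It had 4 and 4 counts in vehicle and 28 and 30 in Cre-Tat of LV, 7 and 5 against 36 and 34 in 4V, and 3 and 5 in wildtype against 41 and 37 in Otx2+/-. No group overlapped its control. The log2 fold changes were 2.65 ± 0.65 (adjusted p = 0.041), 1.88 ± 0.49 (0.018) and 3.16 ± 0.49 (0.01), and the gene passed the filter only through the higher group. The Otx2+/- call held without any one pool. In LV it was lost without any one of the 4 pools (log2 fold changes 2.51 to 2.80, adjusted p 0.096 to 0.21), and with DESeq2 (0.068) or summed transcripts (0.11). In 4V it was lost without pool A or B of vehicle 4V (1.99 and 1.8, adjusted p = 0.088 and 0.081) or pool A of Cre-Tat 4V (1.77, adjusted p = 0.096), with DESeq2 (0.087) and with summed transcripts (0.12).

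Within type IX, Col9a2 was called lower in 4V of the conditional model on few counts. It passed the filter on low counts only through the vehicle pools, where it was higher. The abundant Col9a3 did not pass the test. Col9a2 had 21 and 8 counts in vehicle and 7 and 4 in Cre-Tat of 4V (-1.99 ± 0.62, adjusted p = 0.047), and the call was lost without pool A of vehicle 4V (-1.32, adjusted p = 0.64), pool A of Cre-Tat 4V (-2.50, adjusted p = 0.083) or pool B of Cre-Tat 4V (-1.59, adjusted p = 0.28). It was also lost with DESeq2 (0.2), with all groups in 1 fit (0.08) and with summed transcripts (0.077). Col9a3 stood at 443 and 396 CPM in vehicle and 352 and 300.9 CPM in Cre-Tat of 4V (-0.35 ± 0.15, adjusted p = 0.15), and at 369 and 306 against 275 and 314 CPM in LV (-0.17 ± 0.17, adjusted p = 0.77). In the constitutive model it was 404 and 368 CPM in wildtype and 329 and 365 CPM in Otx2+/- (-0.15 ± 0.12, adjusted p = 0.56).

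**Figure D3:**
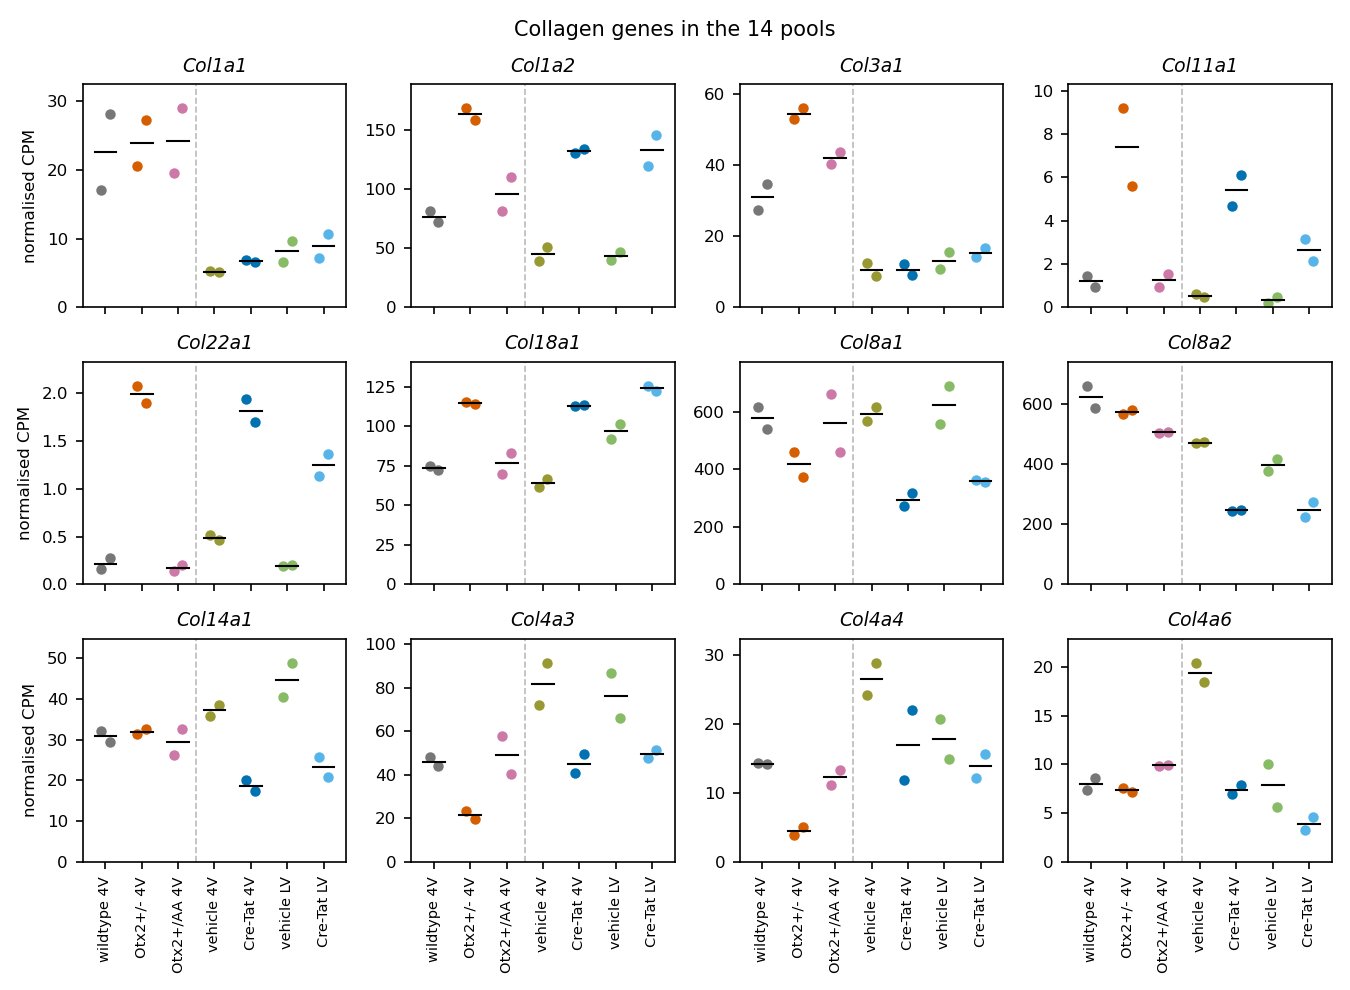
Normalised CPM (y axis, from 0) of 12 collagen genes in the 14 pools, 2 points per group with a black line at their mean, constitutive model to the left of the dashed line. Col1a2 lies at 119.9 or above in every pool labelled Otx2+/- or Cre-Tat and at 110.2 or below in all others, while Col1a1 overlaps between Cre-Tat and vehicle of LV.

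Both type VIII chains, the network formers, were lower in the pools labelled Cre-Tat. Col8a1 (chr16:57624258-57754737) stood at 559 and 691 CPM in vehicle and 363.5 and 355 CPM in Cre-Tat of LV, and at 568 and 617 against 273 and 317 CPM in 4V. Neither comparison overlapped, and Col8a1 fell by 0.78 ± 0.17 (adjusted p = 0.02) in LV and by 1.00 ± 0.15 (0.00018) in 4V on the log2 scale. The LV call was lost without pool B of vehicle LV (-0.62, adjusted p = 0.32) and with total counts (-0.61, adjusted p = 0.077). Col8a2 fell in 4V from 470.1 and 473 to 246 and 248 CPM (-0.92 ± 0.14, adjusted p = 0.00023), and in LV it was 378 and 417 against 223 and 275 CPM, just short of the threshold (-0.65 ± 0.17, adjusted p = 0.054). In the constitutive model, Col8a1 was 615 and 540.4 CPM in wildtype and 461.5 and 374 CPM in Otx2+/- (-0.47 ± 0.14, adjusted p = 0.12), and Col8a2 was 663 and 588 against 567.5 and 581.5 CPM (-0.12 ± 0.12, adjusted p = 0.65). Within a pool the ratio of the 2 chains per kb was 1.03 and 1.11 in vehicle and 0.940 and 1.08 in Cre-Tat of 4V, while in Otx2+/- it was 0.690 and 0.546 against 0.787 and 0.780 in wildtype.

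Type IV collagen splits into the ubiquitous pair Col4a1 and Col4a2 and the chains Col4a3, Col4a4, Col4a5 and Col4a6 of specialised basement membranes, and only the second set held calls under an Otx2 label. Col4a3 (chr1:82586921-82722059) stood at 71.9 and 91.5 CPM in vehicle and 40.9 and 49.35 CPM in Cre-Tat of 4V, and at 48.0 and 43.8 CPM in wildtype against 23.1 and 19.4 CPM in Otx2+/-. It fell by 0.85 ± 0.15 (adjusted p = 0.00096) and by 1.11 ± 0.13 (0.0033) on the log2 scale, with no overlap. In LV it was 86.9 and 65.9 against 47.7 and 51.15 CPM (-0.61 ± 0.17, adjusted p = 0.08). The head-to-head partner Col4a4 (chr1:82448423-82586849) had 14.2 and 14.1 CPM in wildtype and 3.91 and 5.02 CPM in Otx2+/-, and fell by 1.66 ± 0.19 (adjusted p = 0.0023). For Col4a4 the conditional pools were 24.2 and 28.8 against 11.9 and 21.95 CPM in 4V (-0.64 ± 0.22, adjusted p = 0.072) and 20.7 and 14.9 against 12.2 and 15.6 CPM in LV, where they overlapped (-0.34 ± 0.20, adjusted p = 0.54). Reads from C430014B12Rik on the other strand could enter 6.6% of the Col4a3 transcript.

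Col4a6, the X-linked chain that pairs with Col4a5, fell in 4V of the conditional model from 20.4 and 18.4 to 6.96 and 7.83 CPM (-1.39 ± 0.18, adjusted p = 5.4e-05). In LV it stood at 10.02 and 5.64 against 3.24 and 4.59 CPM (-0.98 ± 0.30, adjusted p = 0.1), and in the constitutive model at 7.32 and 8.54 against 7.52 and 7.18 CPM (-0.11 ± 0.18, adjusted p = 0.8). The pools of wildtype and Otx2+/- overlapped, and the difference between the models is given below. Col4a5 had 65.1 and 67.0 CPM in vehicle and 48.1 and 50.5 CPM in Cre-Tat of 4V and missed the threshold (-0.41 ± 0.13, adjusted p = 0.051).

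The other head-to-head pair with starts within 1000 bases, Col4a1 and Col4a2, passed in none of the comparisons by Otx2 label. Col4a6 and Col4a5 also diverge, with starts farther apart than that limit. Col4a1 was 19.1 and 30.0 against 28.6 and 29.5 CPM in LV, 10.8 and 12.8 against 13.8 and 14.2 CPM in 4V, and 53.3 and 53.0 CPM in wildtype against 60.0 and 58.8 CPM in Otx2+/-. Its log2 fold changes were 0.27 ± 0.20, 0.26 ± 0.18 and 0.16 ± 0.11 (adjusted p = 0.66, 0.44 and 0.49). Col4a2 gave 0.41 ± 0.18, -0.08 ± 0.17 and 0.25 ± 0.11 (adjusted p = 0.3, 0.86 and 0.28).

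Col18a1, a multiplexin of basement membranes whose end fragment is endostatin (chr10:77052178-77166548), rose in 4V of both models. Its pools were 61.5 and 66.5 CPM in vehicle and 113 and 113 CPM in Cre-Tat (0.83 ± 0.13, adjusted p = 0.00039), and 74.8 and 72.3 CPM in wildtype against 115 and 114 CPM in Otx2+/- (0.64 ± 0.11, adjusted p = 0.015). In LV the vehicle pools were already higher, at 91.9 and 102 CPM, and the Cre-Tat pools reached 126 and 123 CPM without passing the test (0.38 ± 0.16, adjusted p = 0.26). The interaction of label and ventricle was 0.44 ± 0.19 and did not pass. Col15a1, the other multiplexin, passed in none of these comparisons (0.52 ± 0.36 in LV, -0.62 ± 0.44 in 4V and -0.59 ± 0.24 in Otx2+/-).

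Col17a1, the transmembrane collagen of hemidesmosomes (chr19:47646344-47692094), fell in both ventricles of the conditional model. It had 4.55 and 4.63 CPM in vehicle and 1.13 and 1.5 CPM in Cre-Tat of LV, and 2.72 and 3.96 against 1.35 and 1.25 CPM in 4V. The groups did not overlap, and the log2 fold changes were -1.78 ± 0.32 (adjusted p = 0.0077) and -1.34 ± 0.36 (0.021). In 4V the call was lost without pool B of vehicle 4V (-1.07, adjusted p = 0.2), without pool B of Cre-Tat 4V (-1.27, adjusted p = 0.058) and with DESeq2 (0.067). In the constitutive model the level was higher, 9.63 and 12.5 CPM in wildtype against 13.2 and 8.92 CPM in Otx2+/-, with overlapping pools (0 ± 0.22). Type VI (the beaded-filament chains Col6a1, Col6a2, Col6a3 and Col6a6) had no call in these 3 comparisons, with log2 fold changes between -0.35 and 0.65.

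In Otx2+/AA, 0 of 34 tested collagens passed, where edgeR called 0.345% of 14494 genes, and DESeq2 also called 0. At an unadjusted p under 0.05 there were 6 collagens. Over all genes, 1292 of the 14494 had an unadjusted p under 0.05. Col1a2 stood at 81.7 and 110 CPM against 81.2 and 72.4 CPM in wildtype (0.32 ± 0.15, adjusted p = 0.59), Col11a1 at 20 and 30 counts against 28 and 17, and Col4a4 at 11.1 and 13.3 against 14.2 and 14.1 CPM (-0.22 ± 0.18, adjusted p = 0.83). Col6a6, a type VI chain, had the most extreme value, with 45 and 9 counts against 99 and 73 (-1.83 ± 0.45, adjusted p = 0.13). This comparison shares its wildtype pools with that of Otx2+/-. The median of all genes moved to 0.11 with total counts.

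The tests of a difference between responses were run over 8 pools each. For label by ventricle, 0 of 36 tested collagens passed, and 0.00642% of 15565 genes did (1 gene); 416 genes and 2 collagens had an unadjusted p under 0.05, and DESeq2 called 0 collagens. For label by model in 4V, 4 of 35 collagens passed, all lower in the conditional than in the constitutive response, where 0.861% of 15327 genes passed in that direction (1.64% in all). These were Col14a1 (difference of log2 fold changes -1.05 ± 0.18, adjusted p = 0.013), Col4a6 (-1.29 ± 0.24, 0.019), Col8a2 (-0.82 ± 0.17, 0.03) and Col5a2 (-1.11 ± 0.25, 0.041). Each fell in 4V under Cre-Tat, and in Otx2+/- none passed, with log2 fold changes between -0.12 and 0.35. Col1a2 (0.46 ± 0.19), Col11a1 (0.73 ± 0.57) and Col22a1 (-1.28 ± 0.70) did not pass, with adjusted p of 0.32, 0.63 and 0.47. With total counts Col5a2 (-0.99, adjusted p = 0.085) and Col8a2 (-0.70, 0.06) were lost. The fibroblast marker Pdgfra differed in the same direction (-1.12 ± 0.16, adjusted p = 0.0038) and Fbln1 in the other (1.11 ± 0.18, 0.0097), as did Ptprc (1.25 ± 0.27, 0.037) and C1qa (1.20 ± 0.27, 0.044) of macrophages and Plvap (1.16 ± 0.26, 0.046) of endothelium, and their part in the result was not tested.

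Each of these 4 calls was lost in at least 1 fit that left out a pool, while no difference changed direction. Col8a2 was lost without any one of the 8 pools (-0.73 to -0.89, adjusted p 0.063 to 0.16), and Col5a2 without any one except pool A of Cre-Tat 4V (-0.91 to -1.25, adjusted p 0.053 to 0.17). Col4a6 was lost without pool A of wildtype (-1.16, adjusted p = 0.076), of Otx2+/- (-1.25, 0.054), of vehicle 4V (-1.20, 0.11) or of Cre-Tat 4V (-1.20, 0.06), and without pool B of vehicle 4V (-1.36, 0.064). Col14a1 was lost without pool B of wildtype (-0.98, adjusted p = 0.057), pool A of vehicle 4V (-1.09, 0.054) or pool B of vehicle 4V (-1.0, 0.08).

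Between ventricles of the pools labelled vehicle, 5 of 32 tested collagens were higher in LV and 3 were higher in 4V, where 3.47% and 3.98% of 14561 genes were (7.45% in all). The median log2 difference of the collagens, LV minus 4V, was -0.06. With total counts the median of all genes moved to -0.19 and the collagen calls became 2 higher and 8 lower in LV. These pools also enter the comparisons with Cre-Tat. Per the methods of the study, LV and 4V ChP were dissected separately from the injected mice, so LV and 4V pools can share mice. The main fits between ventricles and of label by ventricle took the pools as independent.

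**Figure D4:**
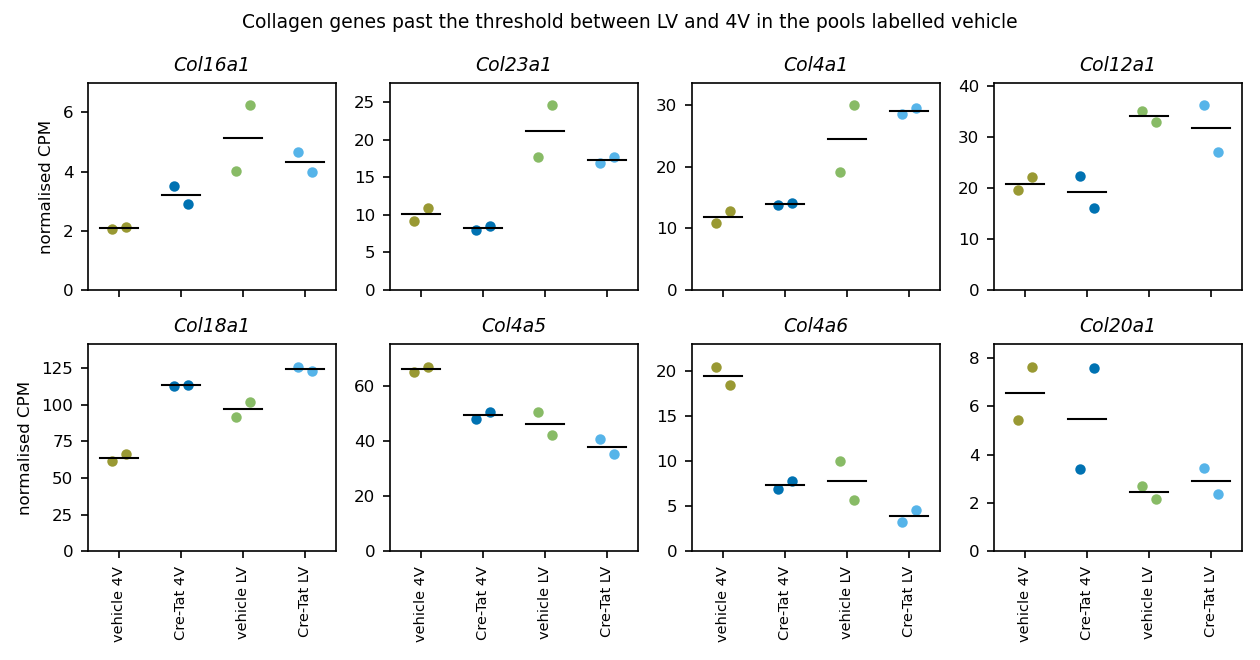
Normalised CPM (y axis, from 0) of the 8 collagen genes past the threshold between LV and 4V in vehicle, with the Cre-Tat pools beside them; 2 points per group, black line at the mean. Col4a6 lies at 18.4 and 20.4 in vehicle 4V and at 10.02 or below in the other 6 pools.

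The chains that were higher in LV include the vascular basement membrane chain Col4a1 and the endostatin precursor Col18a1. Col4a1 had 19.1 and 30.0 CPM in LV and 10.8 and 12.8 CPM in 4V (1.03 ± 0.20, adjusted p = 0.0072), and Col18a1 had 91.9 and 102 against 61.5 and 66.5 CPM (0.57 ± 0.12, adjusted p = 0.01). The transmembrane Col23a1 had 17.8 and 24.6 against 9.26 and 10.95 CPM (1.04 ± 0.18, adjusted p = 0.0039). The fibril-associated chains Col12a1 and Col16a1 were also higher, with Col12a1 at 35.1 and 32.8 against 19.6 and 22.1 CPM (0.68 ± 0.14, adjusted p = 0.0089) and Col16a1 at 4.02 and 6.25 against 2.06 and 2.12 CPM (1.26 ± 0.31, adjusted p = 0.028). No pool of one ventricle lay within the range of the other for these 5. With total counts the calls of Col18a1 (0.37, adjusted p = 0.091), Col12a1 (0.49, 0.064) and Col16a1 (1.07, 0.05) were lost, and DESeq2 lost Col16a1 (0.075).

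In the other direction, Col4a6 stood at 20.4 and 18.4 CPM in 4V and 10.02 and 5.64 CPM in LV (-1.34 ± 0.23, adjusted p = 0.0034), and its partner Col4a5 at 65.1 and 67.0 against 50.5 and 42.2 CPM (-0.54 ± 0.13, adjusted p = 0.023). Both chains of this X-linked pair were thus higher in 4V, while Col4a1 was higher in LV. Col4a2, the partner of Col4a1, did not pass, at 16.3 and 21.5 CPM in LV against 14.8 and 15.8 CPM in 4V (0.27 ± 0.16, adjusted p = 0.36). Col20a1, a fibril-associated chain, had 74 and 83 counts in 4V and 56 and 43 in LV. In CPM this was 5.44 and 7.64 against 2.71 and 2.17 (-1.44 ± 0.28, adjusted p = 0.0077). BX649560.1, on the same strand, shares 79 bases (1.8%) of the Col20a1 transcript. It had 677 counts in all pools together, against 701 for Col20a1, and its part in the call was not tested.

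Several of the ventricle calls were lost when a pool was left out, while none changed direction. Without pool A of vehicle 4V, where the lone vehicle pool is taken to vary like the others, Col18a1 (0.53, adjusted p = 0.079), Col4a1 (0.92, 0.055), Col12a1 (0.61, 0.072), Col16a1 (1.26, 0.1) and Col4a5 (-0.55, 0.082) were lost. Without pool B of vehicle 4V, Col18a1 (0.62, adjusted p = 0.057), Col16a1 (1.28, 0.13), Col4a5 (-0.52, 0.14) and Col20a1 (-1.19, 0.11) were lost. Without pool B of vehicle LV, Col4a5 (-0.40, adjusted p = 0.19) and Col16a1 (0.93, 0.19) were lost. Col23a1 and Col4a6 kept their calls without any one pool.

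Of 17 tested genes that fold and modify procollagen, 1 fell in LV (5.88%, where 1.03% of all genes fell), 4 in 4V (23.5%, against 4.98%) and 2 in Otx2+/- (11.8%, against 1.75%). Those of 4V were the peptidyl-prolyl isomerases Fkbp10 (-1.0 ± 0.21, adjusted p = 0.0037) and Ppib (-0.64 ± 0.17, 0.024), the hydroxylase P3h2 (-0.61 ± 0.17, 0.022) and its relative P3h4 (-0.97 ± 0.17, 0.0011), and no member rose. P3h2 fell in LV (-0.68 ± 0.16, adjusted p = 0.034), and P3h4 (-1.12 ± 0.13, 0.0024) and Fkbp10 (-0.99 ± 0.17, 0.015) fell in Otx2+/-. The median of the list was -0.23 in LV, -0.33 in 4V and -0.20 in Otx2+/-, against 0, 0.01 and 0 for all genes. In Otx2+/AA, where 0 of the 17 were called, it was -0.21, against -0.01 for all genes. A lower median of the list was thus not particular to the pools labelled Cre-Tat and Otx2+/-.

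Of the genes that trim and crosslink procollagen, 1 passed in each of these comparisons (9.09% of 11 tested in LV, 8.33% of 12 in 4V and 9.09% of 11 in Otx2+/-, where 3.24%, 10.7% and 3.55% of all genes were called), and it was Tll1, a tolloid-type protease that removes propeptides. Tll1 fell in LV (-0.76 ± 0.17, adjusted p = 0.026) and in 4V (-0.96 ± 0.21, 0.0065) under Cre-Tat and rose in Otx2+/- (1.64 ± 0.22, 0.0048), and the difference between models passed the test (-2.61 ± 0.30, 0.0011). In 4V the shares of processing genes and of basement membrane partners (9.09%) lay below that of all genes, and those of receptors (22.2%) and degradation genes (20%) rest on 2 genes and 1 gene. Among 9 collagen receptors tested, Itga10, the integrin chain of cartilage cells, fell in LV (-1.76 ± 0.26, adjusted p = 0.0016) and 4V (-1.40 ± 0.25, 0.001), and Itga1 rose in 4V (1.10 ± 0.15, 0.0001). Of 8 tested in Otx2+/-, the endocytic receptor Mrc2 rose (0.74 ± 0.12, 0.014). Of 5 degradation genes tested, 1 fell in 4V, the gelatinase Mmp2 (-0.49 ± 0.14, adjusted p = 0.027), and edgeR called 0 in LV or Otx2+/-, where 0 and 1 had an unadjusted p under 0.05. Of 11 basement membrane partners, the laminin chain Lamb1 fell in 4V (-0.94 ± 0.14, adjusted p = 0.00026), and Lama2 (0.56 ± 0.11, 0.031) and Lamc1 (0.53 ± 0.11, 0.039) rose in Otx2+/-. In Otx2+/AA edgeR called 0 genes of these 5 lists, with an unadjusted p under 0.05 for 4 folding genes, 2 processing genes, 2 receptors, 2 degradation genes and 1 basement membrane partner.

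Between ventricles, where 3.47% of all genes were higher in LV and 3.98% lower, the 5 lists held calls in both directions. The crosslinking enzyme Loxl2 (1.31 ± 0.22, adjusted p = 0.0026), Tll1 (1.00 ± 0.16, 0.002) and the enhancer of propeptide removal Pcolce2 (0.64 ± 0.12, 0.0043) were 3 of 11 processing genes tested, with 0 lower. Nid2 (0.82 ± 0.12, adjusted p = 0.00097) and Nid1 (0.78 ± 0.16, 0.0092), the nidogens that link laminin to type IV collagen, were higher in LV, and the laminin chains Lamb1 (-1.23 ± 0.13, 6e-05) and Lama5 (-0.60 ± 0.12, 0.0077) were lower. Crtap (0.57 ± 0.13, adjusted p = 0.018), Ddr2 (0.49 ± 0.12, 0.03) and Mmp14 (0.55 ± 0.13, 0.025) were higher and Mrc2 (-0.72 ± 0.14, 0.0068) was lower. The balance of directions depends on the scaling, since total counts turned the 505 higher and 580 lower of all genes into 252 and 1222.

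Markers of the cells that could carry these transcripts moved with some of the groups, and their part in the results was not tested. The summed level of 8 fibroblast markers was 609 and 637 CPM in vehicle and 484 and 464 CPM in Cre-Tat of LV, 491 and 508 against 391 and 339 CPM in 4V, and 769 and 671 CPM in wildtype against 935 and 815 CPM in Otx2+/-. Of the 6 tested, Pdgfra alone passed in the conditional model (-0.87 ± 0.16, adjusted p = 0.0081 in LV and -1.33 ± 0.13, 3.1e-06 in 4V), and Fbln1 alone in Otx2+/- (-0.70 ± 0.13, 0.025). Members of the fibroblast sum went different ways. In 4V, Pdgfra stood at 214 and 227 CPM in vehicle and 88.4 and 86.7 CPM in Cre-Tat. Fbln1 there was 20.1 and 20.3 against 26.3 and 27.6 CPM. Dcn was 336 and 272 CPM in wildtype and 455 and 414 CPM in Otx2+/-, while Pdgfra was 186 and 189 against 168 and 155 CPM. Dpt was at 0 in 8 pools and reached 6 counts at most. The 8 macrophage markers summed to 70.8 and 80.2 CPM in vehicle and 128 and 116 CPM in Cre-Tat of LV, and to 54.1 and 50.3 against 107 and 79.6 CPM in 4V, with 3 of 8 higher in LV and 6 of 8 in 4V, where 2.21% and 5.7% of all genes were higher. In Otx2+/- 1 of the 8 rose, Mrc1 (0.64 ± 0.14, adjusted p = 0.042), where 1.8% of all genes rose. Sums of 8 mural markers overlapped (251 and 273 against 334 and 248 CPM in LV, 214 and 237 against 246 and 220 CPM in 4V), with 0 calls. Those of 8 endothelial markers were 238 and 280 against 310 and 272 CPM in LV and 154 and 176 against 153 and 183 CPM in 4V, with 1 call, Plvap in 4V (0.70 ± 0.20, adjusted p = 0.034).

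The sum of 8 epithelial markers was lower in the pools labelled Cre-Tat and Otx2+/- (123497 and 162013 against 222527 and 231160 CPM in LV, 97350 and 85361 against 214354 and 181675 in 4V, 124845 and 131694 against 197690 and 186566 in Otx2+/-). The sum of 8 markers of neurons and glia was at or under 141 CPM in every pool. Of the epithelial markers, 3 fell in LV, 7 in 4V and 2 in Otx2+/-, where 1.03%, 4.98% and 1.75% of all genes fell. Otx2, counted over its whole transcript and not over exon 2, was higher in each. The sum is mostly Ttr (148138 of 197690 CPM in pool A of wildtype), which fell in 4V (-1.18 ± 0.30, adjusted p = 0.015) and in Otx2+/- (-0.78 ± 0.17, 0.039), while Enpp2 stood at 43656 and 42236 CPM in wildtype and 42224 and 37035 CPM in Otx2+/-. The shares of all genes called were 3.24% in LV, 10.7% in 4V and 3.55% in Otx2+/-. Of 6 tested markers of neurons and glia, Snap25 (1.27 ± 0.24, adjusted p = 0.01) and Aqp4 (0.78 ± 0.19, 0.038) rose in LV. In 4V, Gfap (0.87 ± 0.24, 0.027) and Aqp4 (0.84 ± 0.20, 0.01) rose and Syt1 (-0.77 ± 0.22, 0.034) fell. Aqp4 rose in Otx2+/- (1.74 ± 0.16, 0.0011). Between ventricles in vehicle, 3.47% of all genes were higher in LV. Beside the collagens higher in LV, 3 of 8 endothelial markers were higher there, Plvap (1.75 ± 0.20, adjusted p = 0.00012), Tek (0.86 ± 0.15, 0.0038) and Pecam1 (0.66 ± 0.15, 0.015). So were 2 of 6 fibroblast markers, Fbln1 (0.93 ± 0.14, adjusted p = 0.0013) and Dcn (0.59 ± 0.11, 0.0069), and the macrophage marker Csf1r (0.67 ± 0.18, 0.038), 1 of 8. Of the 6 fibroblast markers, 4 had a log2 difference above 0. Lum went the other way without passing, at 46.8 and 47.1 CPM in LV against 53.4 and 56.5 CPM in 4V. Dpep1 did the same, at 32.3 and 31.7 against 34.8 and 35.3 CPM. With total counts the calls of all genes between ventricles became 252 higher and 1222 lower in LV (505 and 580 with TMM). The part of these cells in the result was not tested.

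Levels in wildtype and vehicle 4V ChP differed in both directions and are given side by side without a test, since strain, run and injection differ. The chains were chosen after their values were seen. Col4a1 was 53.3 and 53.0 CPM in wildtype 4V and 10.8 and 12.8 CPM in vehicle 4V, and Col15a1, a multiplexin of vessel basement membranes, was 12.6 and 21.7 against 1.47 and 1.75 CPM. Col3a1 was 27.3 and 34.6 against 12.3 and 8.74 CPM. In the other direction, Col12a1 was 6.96 and 12.98 against 19.6 and 22.1 CPM, Col4a5 42.95 and 42.65 against 65.1 and 67.0 CPM and Col4a6 7.32 and 8.54 against 20.4 and 18.4 CPM. Marker sums were higher in wildtype for endothelial (415 and 442 against 154 and 176 CPM), mural (513 and 543 against 214 and 237 CPM), fibroblast (769 and 671 against 491 and 508 CPM) and macrophage genes (93.9 and 95.4 against 54.1 and 50.3 CPM), and their part was not tested. Col8a1, Col9a3 and Col14a1 did not show such a gap, with 615 and 540.4, 404 and 368, and 32.2 and 29.45 CPM in wildtype against 568 and 617, 443 and 396, and 35.8 and 38.5 CPM in vehicle.

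Across the 14 pools, which share these differences of model and run, the genes whose log2 CPM ran most like Col1a1 were Cavin1 (Pearson r 0.988), Pdgfrb (0.984), the receptor of mural cells, and Gsn (0.979). For Col4a1 they were Ece1 (0.988), Rxra (0.982) and Fndc5 (0.982). For Col11a1, whose rise in 4V was the largest of the called collagens, they were Nceh1 (0.960), Gxylt2 (0.942) and Acot11 (0.935), and for Col9a2, whose fall in 4V was the largest on few counts and not without pool A of vehicle 4V (-1.32, where Col17a1 had -1.58), Bgn (0.953), Crygn (0.948) and Cog2 (0.945).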

How the data were processed

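Total RNA of ChP pools was depleted with Ribo-Zero and made into strand-specific ScriptSeq libraries per the labels, whereas the methods of the study name polyA+ purification. The authors deposited raw counts per transcript, 1 file per sequencing run, made from 50-base reads with bcl2fastq 1.8.4, Bowtie 0.12.9, SAMtools and HTSeq 0.5.3 on mm10 per the submitters' processing notes, which also name DESeq 1.8.3. The strand setting of the counting is not given in the sources used here.

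Of 95533 transcripts, 82807 matched GENCODE vM21 (89.5% of counts), and the 12726 others were left out. In the conditional model, 14 of 16 files carry a library number other than that of the sample they are attached to. Files were joined by library number, because runs with the same number differed by sampling noise (chi-square over degrees of freedom 1.005 to 1.036 in 8 of 120 pairs) and all other pairs did not (at least 5.486). Both runs of a pool were summed, and the letters A and B of a pool are replicate numbers 1 and 2.

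Each comparison was fitted over its own pools with edgeR 4.0.16 in R 4.3.3 (filterByExpr, TMM, quasi-likelihood F test, Benjamini-Hochberg over all genes tested, threshold 0.05), after a trial on simulated data. Per the methods of the study, conditional pools joined lysates of separate mice, and constitutive RNA came from pooled tissue in duplicate. P-values measure the spread between 2 pools, and whether constitutive duplicates hold separate mice is not clear from the sources used here. Alternatives were DESeq2 1.42.0, DESeq2 size factors, total counts, a replicate block, no filter, a mean count above 10, all groups of a run in 1 fit, counts summed over transcripts, the files as attached, and leaving out each pool. Collagens past the threshold, the 10 highest per kb, head-to-head pairs with starts within 1000 bases, and up to 4 called genes per other list were named. Likeness to a collagen was measured on log2(CPM + 0.1). Col1a1 in each comparison, Col5a1, Col6a6, Col15a1 and the chain ratios were added after their values were seen. The members and lists were chosen with earlier results of these data known. Total counts per pool were 22750019 to 50088408 over all transcripts, and CPM refer to the gene table. Tables and plots were made with Python 3.11.15, pandas 2.3.3, NumPy 2.4.6 and matplotlib 3.10.9.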

Additional observations from a re-analysis of the deposited data

Results flagged for a closer look

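For 4 collagens the response to the Cre-Tat label in 4V and the response to the Otx2+/- label differed by a test of the difference itself, with the conditional response the lower one. The differences of the log2 fold changes were -1.05 for Col14a1, -1.29 for Col4a6, -1.11 for Col5a2 and -0.82 for Col8a2. Strain, sequencing run, injection and model change together between the responses and cannot be told apart. Each of these 4 calls was lost when some pool was left out, and those of Col5a2 and Col8a2 also with total counts. With 2 pools per group, no pool could be examined as an outlier.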

How the results depend on the processing

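No called collagen changed direction in any alternative run on it. Without 1 pool, 119 of the values of called collagens stayed past the threshold and 53 did not; those that did not are given with the results. Leaving out 1 pool gave 1 to 2 collagens higher and 3 to 4 lower in LV, 3 to 4 higher and 8 to 9 lower in 4V, 5 to 7 higher and 2 to 3 lower in Otx2+/-, 0 to 1 higher and 0 to 1 lower in Otx2+/AA, 1 to 6 higher and 1 to 6 lower between ventricles, and 0 to 3 for label by model. Lower collagens in LV (3) became 5 with DESeq2, 1 with total counts, 8 with no filter and 6 with all groups in 1 fit. Higher collagens in 4V (5) became 3 with DESeq2. In Otx2+/AA, no filter gave 1 higher and 1 lower. Between ventricles, total counts gave 2 higher and 8 lower, and no filter 6 lower. For label by model, total counts gave 2. The median of the collagens became 0.14 in Otx2+/AA and -0.25 between ventricles with total counts, 0.10 in LV with no filter, -0.22 in 4V without pool B of vehicle, -0.17 in LV without pool B of Cre-Tat and -0.03 in Otx2+/- without its pool B.

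The sources used here give the letters A and B only as replicate numbers and do not say what pools of one letter share. The correlation of same-letter deviations was -0.13 in LV, 0.15 in 4V, 0.36 in Otx2+/-, 0.08 in Otx2+/AA and 0.07 between ventricles. With the replicate block, collagens lower in LV were 5, higher and lower in Otx2+/- 9 and 5, in Otx2+/AA 2 and 1, lower in LV than in 4V 8, and called for label by model 10. All genes called under the block were 3113 in 4V (1554 without it), 2538 in Otx2+/- (517), 549 in Otx2+/AA (50), 2274 between ventricles (1085), 1048 for label by model (252) and 2 for label by ventricle (1). A crossed block in LV, chosen after seeing the data, gave 8 lower collagens and 1012 genes (486).

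Joined as attached, files of the same library fall into different pools, and collagen calls were 12 higher and 14 lower in LV, 13 higher in 4V and 6 lower between ventricles, with 6710, 8742 and 4718 genes called. Leaving out 1 pool called 321 to 738 genes in LV (486 with all pools), 892 to 1665 in 4V (1554), 402 to 882 in Otx2+/- (517), 33 to 382 in Otx2+/AA (50), 402 to 1968 between ventricles (1085), 0 to 3 for label by ventricle (1) and 80 to 246 for label by model (252). Among the remaining settings, counts over all genes that moved by more than 1.5 times were no filter in LV (874), Otx2+/AA (390) and between ventricles (1840), DESeq2 in Otx2+/AA (122) and for label by ventricle (5), all groups in 1 fit in Otx2+/AA (18) and between ventricles (717), and summed transcripts in Otx2+/AA (22). Where a group keeps 1 pool, that pool is assumed to vary like the other groups. Col11a1, Col22a1, Col5a3 and Col9a2 have 10 counts or fewer in at least 1 pool, which limits their precision.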
